A study of Mus musculus with 2 samples.

Results

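The myeloid genes Spi1, Cebpa, Csf1r and Mpo were examined in chromatin of mouse Th2 cells, a T helper lineage and not a myeloid one. Each gene was represented by a window of the mm9 genome, divided into 1-kb bins. The Spi1 window held 80 bins (chr2:90890001-90970000), the Cebpa window 90 (chr7:35870001-35960000), the Csf1r window 80 (chr18:61240001-61320000) and the Mpo window 38 (chr11:87592001-87630000). Together these were 288 of the 2246042 bins of the genome that held a read. Chromatin immunoprecipitation with sequencing (ChIP-seq) used an antibody to histone H3 acetylated on its lysines. This modification, H3KAc, is found on active chromatin. A second precipitation with non-specific polyclonal rabbit IgG gave the background. Both libraries came from CD4+CD62L+ cells of C57BL/6 spleen. The cells had been activated through CD3 and CD28 for 5 days in IL-4 (10 ng/ml) and anti-IFN-g (2 ug/ml) and then rested for 3 days.

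Spi1 encodes PU.1, an ETS-family transcription factor needed for macrophages, neutrophils and B cells, whose gene is turned down as precursors commit to the T lineage. PU.1 has also been described in some Th2 cells, where it limits cytokine production. Cebpa encodes C/EBP alpha, the transcription factor that directs progenitors towards granulocytes. Csf1r encodes the receptor for macrophage colony-stimulating factor and is a target of PU.1. Mpo encodes myeloperoxidase, a granule enzyme of neutrophils and their precursors. Acetylation of histone H3 is laid down by acetyltransferases recruited to active promoters and enhancers, and silent tissue-specific genes usually carry little of it.

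Promoters of Cebpa and Mpo, 2 of the 4 members, were taken from the RefSeq promoter table used here. Spi1 had no entry in it, and Csf1r was not looked up. For these the 250 bases before the annotated start are shown to set a promoter rich in CpG beside one poor in it. Both are on the plus strand of build GRCm38.p6. These positions belong to another build than the read positions and cannot be set against them. Capitals mark matches to the motifs searched.
Cebpa (chr7:35119043-35119292): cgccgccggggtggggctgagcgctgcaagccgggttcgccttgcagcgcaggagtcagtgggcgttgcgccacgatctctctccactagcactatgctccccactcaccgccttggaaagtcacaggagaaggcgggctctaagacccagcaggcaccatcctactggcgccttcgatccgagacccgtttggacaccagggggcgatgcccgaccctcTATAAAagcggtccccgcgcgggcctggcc
Mpo (chr11:87793534-87793783): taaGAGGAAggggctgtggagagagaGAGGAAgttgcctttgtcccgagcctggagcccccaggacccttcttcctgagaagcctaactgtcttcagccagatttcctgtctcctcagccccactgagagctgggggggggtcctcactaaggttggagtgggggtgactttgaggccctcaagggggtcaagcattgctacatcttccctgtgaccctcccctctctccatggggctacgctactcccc
The Cebpa sequence held 22 CpG dinucleotides, and 14.8% of the 32851 promoters in the table held as many or more. The Mpo sequence held 2, and the median promoter held 6. The share of G and C was 66.4% for Cebpa and 59.2% for Mpo, against a median of 52.4%. In all, 4 motifs were searched on both strands, and none of their matches overlapped. The core of many PU.1 sites, GAGGAA, occurred in the Mpo sequence on the plus strand at bases -247 to -242 and at bases -224 to -219 from the start, and 23.3% of all promoters held it. The TATA box TATAAA occurred in Cebpa at bases -30 to -25 and in 12.4% of all promoters. Neither TTGCNNAA, a loose form of a C/EBP site (9.56% of promoters), nor CCAAT (33.8%) was found in either sequence.

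The gene table belongs to GRCm38, so bins below are given by their mm9 position and none is assigned to a promoter, an exon or a neighbouring gene. The table was used only for the order of protein-coding genes. Rapsn, Psmc3 and Slc39a13 precede Spi1, and Mybpc3, Madd and Nr1h3 follow it. Pepd, Cebpg and Gm45095 precede Cebpa, and Slc7a10 follows it. Pdgfrb precedes Csf1r and Hmgxb3 follows it, while Tspoap1 precedes Mpo and Lpo follows it. Among these neighbours, Psmc3 encodes a subunit of the proteasome, which is needed in most cells. Marker genes of T cells were not analysed here for the same reason, so the labelled cell type was not checked.

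The H3KAc library held 19711169 distinct read positions and the IgG library 1897666. A distinct position was read 1.11 times in H3KAc and 4.02 times in IgG. All levels are distinct positions per 1000000 distinct positions of the library (RPM). This scaling sets the ratio over the whole genome at 1. A ratio of 1 thus stands for the genome average and not for an absence of acetylation. There was 1 library per group, so no p-value was computed. Every interval is a 95% interval that covers counting error only and compares these libraries, not the conditions. IgG set the precision of each ratio, since 60.5% of covered bins had no IgG position.

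H3KAc did not stand above IgG over any of the 4 windows as a whole. The Spi1 window had 1.24 RPM per kb in H3KAc (interval 1.18 to 1.29) and 1.27 in IgG (1.10 to 1.46). Its ratio of H3KAc over IgG was 0.973 (0.839 to 1.13). The Csf1r window had 0.850 RPM per kb in H3KAc (0.805 to 0.897) and 1.001 in IgG (0.848 to 1.17), a ratio of 0.849 (0.717 to 1.01). Both of these intervals include 1, but that of Csf1r left out 1 under 2 alternatives. Its ratio was 0.834 (0.705 to 0.993) with IgG scaled by background bins and 0.742 (0.677 to 0.813) with every deposited read. With every read, copies of a position enter as independent counts, which makes that interval too narrow. The Cebpa window had 0.782 RPM per kb in H3KAc (0.741 to 0.824) and 1.24 in IgG (1.08 to 1.42), and its ratio was 0.630 (0.545 to 0.731). The Mpo window had 0.834 RPM per kb in H3KAc (0.770 to 0.902) and 1.40 in IgG (1.14 to 1.70), and its ratio was 0.596 (0.482 to 0.743). In the Cebpa and Mpo windows the IgG level was therefore the higher one by more than counting error.

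**Figure D1:**
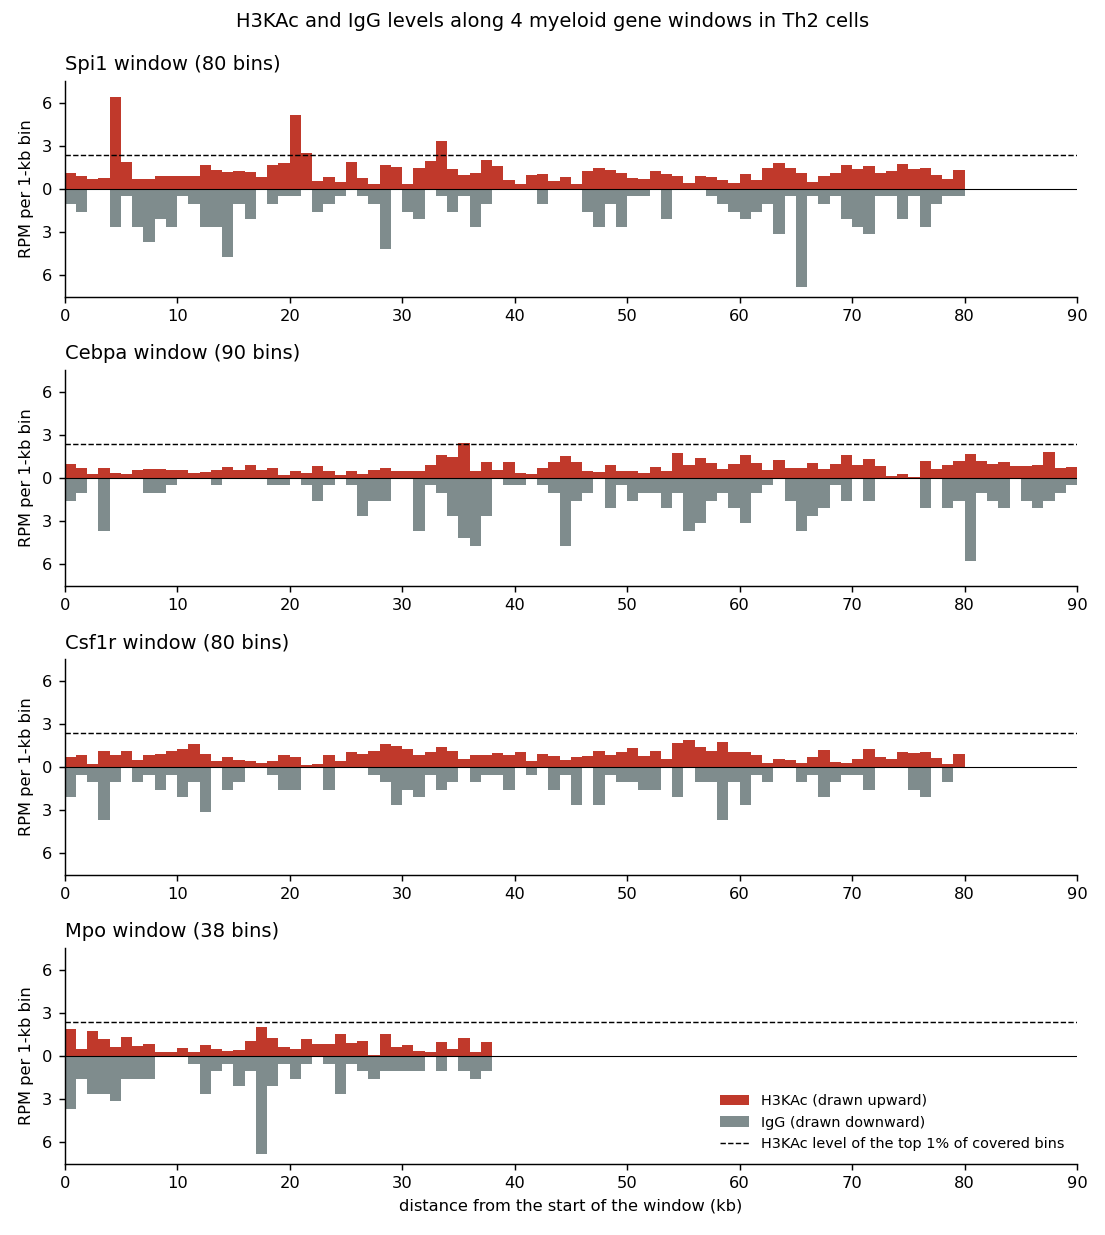
H3KAc (red, upward) and IgG (grey, downward) in RPM per 1-kb bin, against the distance in kb from the start of each window. The dashed line is the H3KAc level of the top 1% of covered bins, and H3KAc passes it in 4 bins of the Spi1 window and 1 of the Cebpa window.

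Among the windows, that of Spi1 had the highest H3KAc level, which was not assigned to Spi1 itself or to a neighbouring gene. The Spi1 window had 1.58 times the H3KAc of Cebpa per kb (1.48 to 1.70). It had 1.46 times that of Csf1r (1.36 to 1.56) and 1.48 times that of Mpo (1.35 to 1.63). All 6 pairs of windows were compared, without adjustment of their intervals. Csf1r and Mpo differed by less than counting error in H3KAc (1.02 times, 0.925 to 1.12), as did Cebpa and Mpo (0.937 times, 0.852 to 1.03). Cebpa had 0.920 times the H3KAc of Csf1r (0.853 to 0.993). In IgG the order was another one. Csf1r had the lowest IgG level, 0.715 times that of Mpo (0.552 to 0.929). Spi1 had 1.27 times the IgG of Csf1r (1.02 to 1.58), and Cebpa had 1.24 times (1.002 to 1.54). Spi1 did not differ in IgG from Cebpa (1.02 times, 0.838 to 1.25) or Mpo (0.908 times, 0.710 to 1.17) beyond counting error. Nor did Cebpa differ from Mpo (0.886 times, 0.696 to 1.13).

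The windows lay well above the average of their chromosomes in both libraries. The Spi1 window had 2.56 times the mean H3KAc level of chromosome 2 and 2.63 times its mean IgG level. The Csf1r window had 2.11 times the H3KAc and 2.55 times the IgG of chromosome 18. The Cebpa window stood at 1.49 times chromosome 7 in H3KAc and 2.29 times in IgG. The Mpo window stood at 1.36 times chromosome 11 in H3KAc and 2.27 times in IgG. Over each of these chromosomes as a whole the ratio of H3KAc to IgG lay between 0.969 and 1.03. The scaling of the libraries sets the genome-wide ratio, so values near it were fixed in large part beforehand.

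All autosomal stretches of the same length were used to place each window (29512 tiles of 80 kb, 26231 of 90 kb and 62098 of 38 kb). Of these, 2.14% had at least the H3KAc level of the Spi1 window, 9.70% that of Csf1r, 10.6% that of Mpo and 12.3% that of Cebpa. The IgG levels were also in the upper part of the range, with 3.47% of tiles at or above Spi1, 3.67% at or above Cebpa, 7.86% at or above Csf1r and 2.78% at or above Mpo. By the ratio, Spi1 lay near the middle, with 41.5% of tiles at or below it, and Csf1r had 23.8%. The Cebpa ratio was near the low end, with 2.60% of tiles at or below it, and so was the Mpo ratio, with 4.37%. The median tile had a ratio of 1.03 for 80 kb and 1.04 for both other lengths. The windows were thus high in both libraries. With H3KAc thinned to the number of IgG positions, the ratio was 0.731 (0.590 to 0.904) for Cebpa and 0.426 (0.291 to 0.614) for Mpo. The thinning was a single random draw, so these ratios also carry the error of that draw. The part of base composition in the ratios was not tested.

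**Figure D2:**
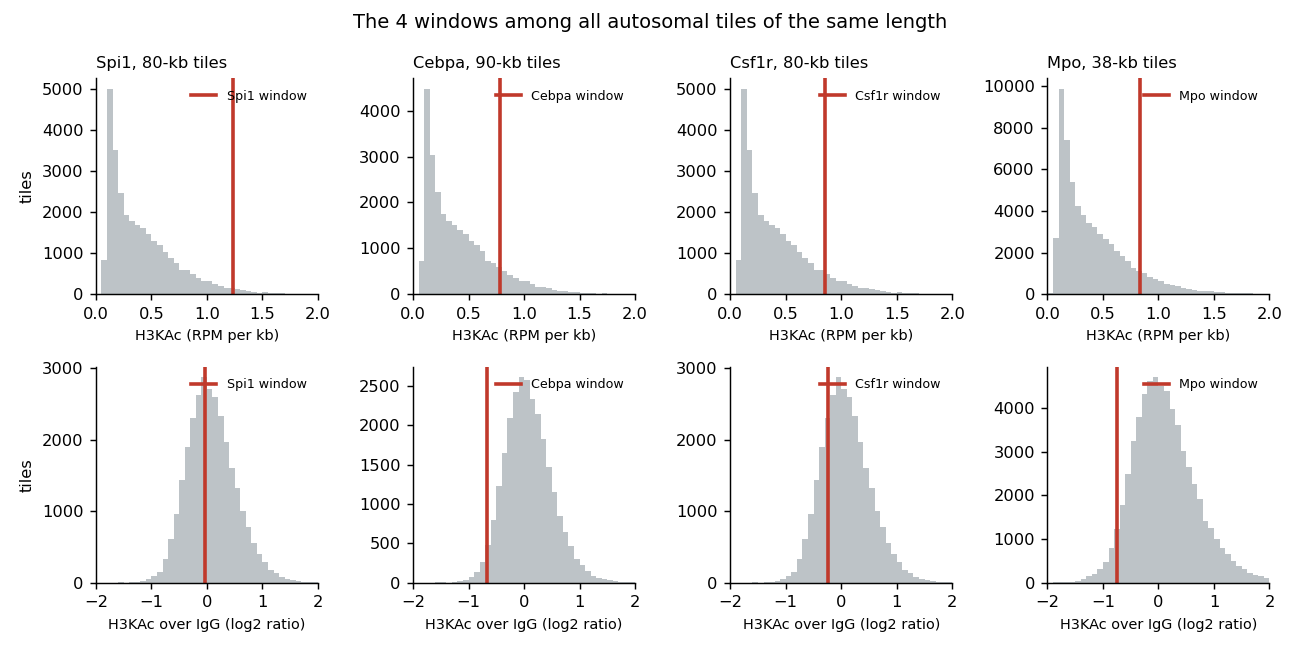
Number of autosomal tiles by H3KAc level in RPM per kb (top) and by log2 ratio of H3KAc over IgG (bottom), for tiles of the length of each window; the red line is the window, and tiles beyond the axes are not drawn. All 4 windows stand in the upper part of the H3KAc range, and the Cebpa and Mpo windows stand at the low end of the ratios.

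Single bins were then read against IgG. A bin with at least 5 positions in both libraries together was called above IgG when the lower bound of its ratio exceeded 2, and below IgG when the upper bound was under 0.5. No bin of the 283 tested in the 4 windows was called above IgG, where the rule called 0.0836% of the 1409765 bins tested in the genome. With a bin that has no IgG position, the rule needs 79 H3KAc positions. The highest bins held 48 in the Cebpa window, 40 in Mpo and 37 in Csf1r, so no bin of these 3 windows could have been called above IgG at this depth.

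A lower bound above 1, which needs 41 H3KAc positions in a bin without IgG, was met by 4 bins, all in the Spi1 window. The share was 1.41% of the bins tested in the 4 windows, against 0.651% in the genome. No bin of the Csf1r or Mpo windows held 41 positions, and the 48 of Cebpa came with 8 in IgG. With IgG summed over the 11 bins around each bin, a lower bound above 2 was met by 2 of the 288 bins, both in the Spi1 window. That share was 0.694%, against 1.59% in the genome.

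**Figure D3:**
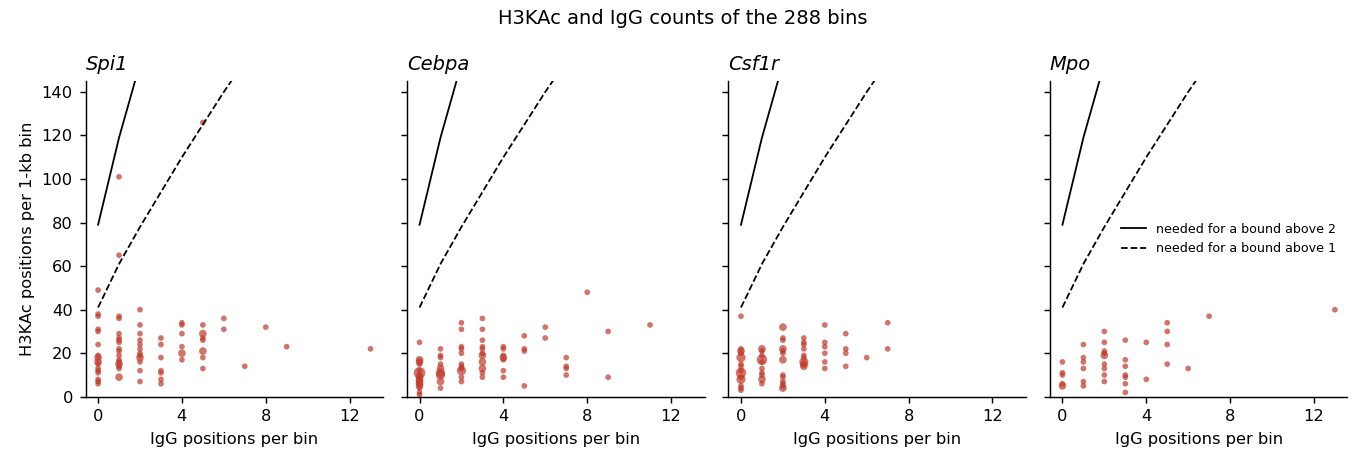
H3KAc positions against IgG positions in each of the 288 bins, with larger points where several bins share the same pair of counts. The solid and dashed lines give the H3KAc count needed for a lower bound above 2 and above 1; no bin reaches the solid line, and 4 bins of the Spi1 window reach the dashed one.

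Part of the H3KAc of the Spi1 window lay in 3 narrow runs. A run is a set of adjacent bins among the top 1% of covered bins, which here means at least 47 H3KAc positions in 1 kb. This window had 4 such bins of 80, Cebpa had 1 of 90, and Csf1r and Mpo had none, against 0.974% of covered bins in the genome. The 4 Spi1 bins held 17.5% of the H3KAc of the window in 5.00% of its length. The other 76 bins had 1.07 RPM per kb in H3KAc and 1.29 in IgG, a ratio of 0.833 (0.716 to 0.975). The bins left out were chosen for high H3KAc, which favours a lower ratio, so this value is a description. Without its 1 such bin, the Cebpa window had a ratio of 0.632 (0.545 to 0.736).

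The run nearest the start of the Spi1 window lay at chr2:90894001-90895000. It had 126 H3KAc and 5 IgG positions, or 6.39 RPM (5.32 to 7.61) and 2.63 RPM, and its ratio was 2.43 (1.01 to 7.60). This was the highest H3KAc bin of the 4 windows, and 0.113% of covered bins had at least as many positions. Its summit was the 100 bp from 90894701 to 90894800 with 23 positions, and the H3KAc reads were divided into 58 on the plus and 68 on the minus strand. The bin to its left held 15 H3KAc positions and the bin to its right 37.

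The second run covered 2 kb, chr2:90910001-90912000, with 150 H3KAc positions and 1 IgG position. H3KAc was 7.61 RPM (6.44 to 8.93) and IgG 0.527 RPM, a ratio of 14.4 (2.55 to 574). Its left bin held 101 and 1 positions (ratio 9.72, 1.71 to 388). Its right bin held 49 and none, and the lower bound of its ratio was 1.23. Its summit lay from 90910201 to 90910300 with 22 positions. Outside the run H3KAc fell off to 11 positions in the next bin on the right, and 36 remained in the bin on the left.

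The third run lay at chr2:90923001-90924000 with 65 H3KAc positions and 1 IgG position. H3KAc was 3.30 RPM (2.55 to 4.20) and IgG 0.527 RPM, a ratio of 6.26 (1.08 to 251). It had no sharp summit, since its highest 100 bp held 10 positions and 800 bp of the run had at least 0.5 of that number. Its bins to the left and right held 38 and 27 H3KAc positions. The 3 runs were chosen by their H3KAc level, so their ratios are a description. None of them was assigned to Spi1 or to a neighbouring gene. In a bulk library, strong acetylation in few cells and weak acetylation in most cells cannot be told apart.

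**Figure D4:**
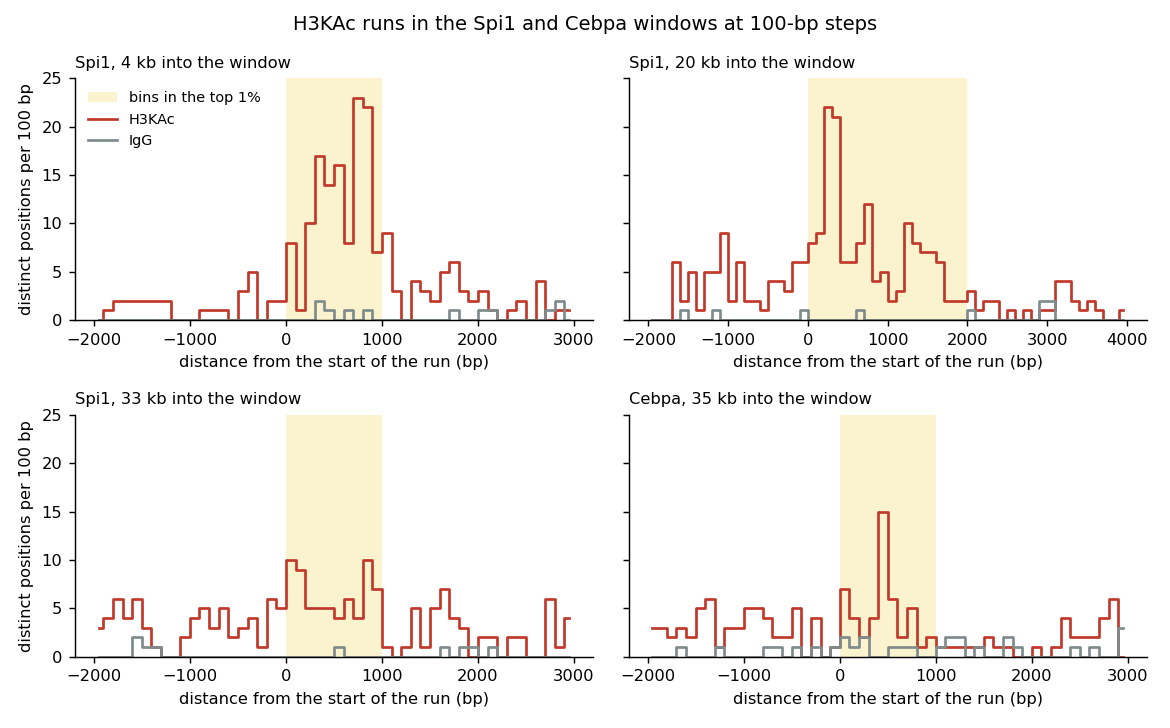
Distinct positions per 100 bp in H3KAc (red) and IgG (grey), against the distance in bp from the start of each run; the shaded part is the run. The first and second Spi1 runs rise to 23 and 22 H3KAc positions per 100 bp, the third stays at 10 or fewer, and the Cebpa bin has 1 step of 15.

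Over the whole Spi1 window, runs included, H3KAc per bin had a lowest value of 6 positions, a median of 21 and a highest of 126, and every one of the 80 bins had at least the genome median of 6. IgG per bin ranged between 0 and 13 with a median of 2, and 18 bins had no IgG position. In 10-kb segments H3KAc lay between 0.776 and 1.56 RPM per kb. The segment from 90910001 to 90920000, which holds the second run, had a ratio of 1.64 (1.02 to 2.81). The segment from 90950001 to 90960000 had 1.16 RPM per kb in H3KAc and 1.95 in IgG, a ratio of 0.596 (0.420 to 0.868). It holds the bin with the most IgG, chr2:90955001-90956000, with 22 H3KAc and 13 IgG positions. This bin was called below IgG (ratio 0.163, 0.0785 to 0.352), a call made in 0.629% of tested bins of the genome. Its IgG positions were on both strands, 5 plus and 8 minus, and were read 69 times in all.

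The Cebpa window had 1 bin at the edge of the top 1%, chr7:35905001-35906000. It held 48 H3KAc and 8 IgG positions, or 2.44 RPM (1.80 to 3.23) and 4.22 RPM, so its ratio was 0.578 (0.271 to 1.41). A single 100-bp step held 15 of its H3KAc positions. The next bin to the right, from 35906001 to 35907000, held 9 positions in each library and was called below IgG (ratio 0.0963, 0.0339 to 0.274). The bins from 35896001 to 35897000 (5 and 5 positions, ratio 0.0963, 0.0222 to 0.418) and from 35901001 to 35902000 (10 and 7 positions, ratio 0.138, 0.0473 to 0.426) were called below as well. These were the only Cebpa bins called under this rule, 3 of 87 tested. Over the 4 windows 4 of 283 tested bins were called below IgG, or 1.41%, against 0.629% of tested bins in the genome. A call below needs at least 4 IgG positions in the bin, so that windows rich in IgG can give more of them.

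Elsewhere in the Cebpa window H3KAc stayed under the top 1%. The bins of the window held 1 to 48 H3KAc positions with a median of 13, and 0 to 11 IgG positions with a median of 2. The next highest H3KAc bins were chr7:35957001-35958000 with 36 H3KAc and 3 IgG positions (ratio 1.16, 0.365 to 5.86) and chr7:35924001-35925000 with 34 and 2 (ratio 1.64, 0.420 to 14.1). The bin with the most IgG, from 35950001 to 35951000, held 33 H3KAc and 11 IgG positions (ratio 0.289, 0.142 to 0.633). Of 9 segments of 10 kb, 6 had an upper bound below 1, and the share of such segments in the genome is not given here. The exception in the other direction was the segment from 35880001 to 35890000, with a ratio of 3.47 (1.15 to 17.1). Its H3KAc level, 0.548 RPM per kb, was among the lower ones of the window, and its IgG level was 0.158 RPM per kb from 3 positions.

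The Csf1r window had no bin in the top 1% and none called above or below IgG. H3KAc per bin was 3 at the lowest, 17 at the median and 37 at the highest, and IgG was 0, 2 and 7. The 3 highest H3KAc bins lay within 5 kb of each other. The bin chr18:61295001-61296000 held 37 H3KAc positions and none in IgG, or 1.88 RPM (1.32 to 2.59), and the lower bound of its ratio was 0.918. The bins from 61298001 to 61299000 and from 61294001 to 61295000 held 34 and 33 H3KAc positions, with 7 and 4 in IgG. The 10-kb segment that holds them, from 61290001 to 61300000, had the highest H3KAc level of the window, 1.25 RPM per kb, and 1.32 RPM per kb in IgG (ratio 0.951, 0.629 to 1.50). None of the 8 segments of this window had an interval that left out 1, again without a genome share beside it. The most IgG positions in a bin, 7, were found in the bin from 61298001 and also in that from 61243001 to 61244000, which held 22 H3KAc positions.

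The Mpo window likewise had no bin in the top 1% and none called in either direction. H3KAc per bin was 2 at the lowest, 15 at the median and 40 at the highest, and IgG was 0, 2 and 13. The same bin, chr11:87609001-87610000, was the highest of the window in both libraries. It held 40 H3KAc positions, or 2.03 RPM (1.45 to 2.76), and 13 IgG positions, or 6.85 RPM, and its ratio was 0.296 (0.155 to 0.604). At least as many H3KAc positions were found in 1.38% of covered bins, and at least as many IgG positions in 0.0438%. The next bins by H3KAc lay at the left edge, from 87592001 to 87593000 (37 and 7 positions, ratio 0.509, 0.224 to 1.35) and from 87594001 to 87595000 (34 and 5 positions, ratio 0.655, 0.255 to 2.14). The segments from 87592001 to 87602000 (ratio 0.512, 0.355 to 0.757) and from 87602001 to 87612000 (ratio 0.449, 0.307 to 0.676) lay below 1. Intervals of both other segments included 1, and no genome share of segments is given.

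Bins with moderately high H3KAc were frequent in all 4 windows. Among the top 5% of covered bins were 30 of 80 bins in the Spi1 window, 12 of 90 in Cebpa, 11 of 80 in Csf1r and 8 of 38 in Mpo, against 4.99% in the genome. Bins in which the upper bound of the ratio was under 1 were also met. They were 5 of 80 tested in the Spi1 window, 9 of 87 in Cebpa, 3 of 78 in Csf1r and 4 of 38 in Mpo. The share in the genome was 3.80% of tested bins, and that of Csf1r was near it. IgG was high in the same windows (given above), and no bin of the Cebpa, Csf1r or Mpo windows had a lower bound above 1.

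The 100 kb to each side were set beside each window, and the contrast in ratio was widest at Mpo. The ratio was 0.596 (0.482 to 0.743) in the Mpo window, against 1.48 (1.29 to 1.71) in its left flank (chr11:87492001-87592000), and these intervals do not meet. The flank had 1.67 RPM per kb in H3KAc and 1.13 in IgG. The flank held 22 bins in the top 1% and 1 bin called above IgG, and its highest bin, from 87547001 to 87548000, held 141 H3KAc and 3 IgG positions. Its right flank had a ratio of 0.992 (0.840 to 1.18). The Cebpa window, at 0.630, lay below its left flank at 0.892 (0.766 to 1.04) with no overlap of intervals, while the interval of its right flank, at 0.763 (0.658 to 0.887), overlapped its own. For Csf1r the window was at 0.849, the left flank at 0.712 (0.627 to 0.810) and the right at 1.16 (0.966 to 1.40). For Spi1 the window was at 0.973 and its left and right flanks at 0.964 (0.780 to 1.20) and 1.09 (0.920 to 1.29). H3KAc was 1.24 RPM per kb in the Spi1 window and 0.482 in its left flank, and IgG was 1.27 and 0.501, so that both libraries were higher in the window.

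**Figure D5:**
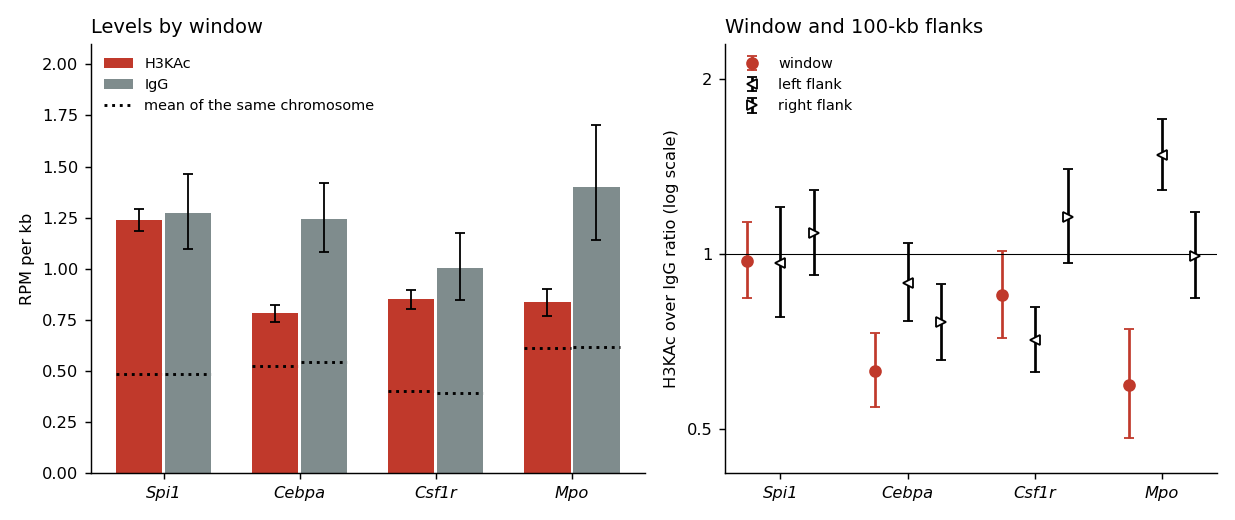
Left, H3KAc and IgG levels of each window in RPM per kb, with 95% Poisson intervals of counting error and dotted lines for the mean of the chromosome. Right, ratio of H3KAc over IgG (log scale) with 95% intervals for each window and for 100 kb to its left and right; the Mpo window, at 0.596, stands apart from its left flank, at 1.48.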

How the data were processed

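Per the labels, single-end Illumina ChIP-seq was performed on fragments of about 200 bp from chromatin crosslinked in 0.4% formaldehyde, with 7 ug of antibody. Alignment was to mm9 with Bowtie, per the submitters' processing notes. Its version and the handling of multiply aligned reads were not given in the sources used here. Each row of the deposited files is 1 alignment (chromosome, start, end and strand of 35 bases), without counts or normalization.

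Reads that shared a 5' end and strand were collapsed to 1 distinct position, moved 100 bp along their strand and assigned to 1-kb bins. Levels are per 1000000 distinct positions. Ratios have exact conditional binomial (Clopper-Pearson) 95% intervals and levels exact Poisson 95% intervals. Reads carried no molecular identifier, so intervals cover counting error only. The bins named are the 3 highest in H3KAc per window, runs in the top 1%, every bin called and the bin with the most IgG. The windows and rules were chosen with earlier results of these data known, and flanks and 10-kb segments were added after the values were seen. Tiles were autosomal and had at least 50% of their bins covered. Motif searches used the RefSeq promoter table of GRCm38.p6. Promoters of other gene lists that had been planned were not analysed here. The calling was run on simulated counts that held counting error only. Such counts cannot show how it performs where libraries vary by more than that. The tools were matplotlib 3.10.9, pandas 2.3.3, scipy 1.17.1 and numpy 2.4.6, under Python 3.11.15.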

Additional observations from a re-analysis of the deposited data

How the results depend on the processing

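No paired analysis was possible because each group had 1 library. The window ratios stayed within their main intervals under 8 alternatives, with 2 exceptions. With H3KAc thinned to the IgG number in a single random draw, the Mpo ratio was 0.426. Without the bins in the top 1%, an alternative added after the values were seen, the Spi1 ratio was 0.833. Those bins were chosen for high H3KAc, which favours a lower ratio. The Csf1r interval left out 1 with every deposited read (0.742, 0.677 to 0.813) and with IgG scaled by background bins (0.834, 0.705 to 0.993).

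Counts moved with every deposited read, where copies enter the intervals as independent. Bins above IgG then became 10 for Spi1, 1 for Cebpa and 4 for Csf1r. Bins below became 3 for Spi1, 10 for Cebpa, 6 for Csf1r and 5 for Mpo. The genome share called under this setting is not given, so these counts are no result about the windows. With both bounds set at 1, Spi1 had 4 bins above and 5 below, Cebpa 9 below, Csf1r 3 below and Mpo 4 below. With IgG over 11 bins, Spi1 had 2 bins above and 1 below, Cebpa 4 below, Csf1r 1 below and Mpo 3 below. For these calls below, and for the settings that follow, no genome share is given either. The single Spi1 bin below became 2 with reads not moved and with 500-bp bins, and 0 with plus-strand reads, thinned H3KAc, 5-kb bins and bounds at 0.25. The 3 Cebpa bins below became 1 with minus-strand reads and 0 with plus-strand reads, thinned H3KAc, 5-kb bins and bounds at 0.25.

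The Cebpa bin in the top 1% was lost (0 bins) with every read, reads not moved and minus-strand reads. The top 5% held 30 Spi1, 12 Cebpa, 11 Csf1r and 8 Mpo bins, and the top 0.1% held 0 Spi1 and 0 Cebpa bins. The lower bound of the first Spi1 run was 0.595 with plus-strand reads, 0.888 with minus-strand reads and 0.979 with 500-bp bins. That of the highest bin of the second run was 0.753 with minus-strand reads, and that of the third run was 0.850, 0.489 and 0.840 with plus-strand reads, minus-strand reads and 500-bp bins. With every read, the bounds of the Cebpa bin from 35924001 and the Csf1r bin from 61295001 became 1.57 and 3.71. A single strand and 500-bp bins hold fewer reads, and other causes were not tested.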

Other observations

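Repeated reads of 1 position did not enter the counts above. In the Spi1 window 184 H3KAc and 577 IgG reads were such repeats, in the Cebpa window 125 and 621, in the Csf1r window 132 and 541, and in the Mpo window 62 and 295. A distinct position was read 1.09 to 1.10 times in H3KAc in these windows and 3.92 to 4.56 times in IgG, highest in the Csf1r window.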
